A study of Mus musculus with 18 samples.

Results

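The comparison set 3 OHT-treated HDAC1-Y48E libraries against 3 OHT-treated HDAC1-E63R libraries, chosen by their titles, which makes 6 of the 18 RNA-seq libraries of the series. All libraries came from mouse E14TG2a embryonic stem cells (ESCs), kept on gelatine with serum and leukaemia inhibitory factor (LIF), with conditional Hdac1 and Hdac2 alleles and a stably integrated piggyBac vector for Flag-tagged HDAC1. The vector carried HDAC1-WT, HDAC1-Y48E (tyrosine 48 to glutamate) or HDAC1-E63R (glutamate 63 to arginine), and each line was sequenced untreated and after OHT, with 3 replicates in each of the 6 groups. OHT is 4-hydroxytamoxifen, which switches on the recombinase that removes endogenous Hdac1 and Hdac2. The labels give 1 µM for 5 days, whereas the methods describe a shorter exposure followed by culture without the drug. After OHT, both groups were meant to depend on the mutant transgene alone. Untreated cells of the same lines carry the transgene beside the endogenous enzymes, so a difference between the lines before OHT and a difference after OHT can be read side by side. Whether a line was a clone or a pool is not given in the sources used here, and with 1 line for each mutant the mutation and other differences between the lines cannot be told apart.

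HDAC1 and HDAC2 are class I lysine deacetylases that work inside corepressor complexes, among them SIN3, NuRD, CoREST, MiDAC, MIER and RERE, and the partner protein decides where the enzyme acts. Both mutations alter the surface of HDAC1 that partners hold. Per the study, HDAC1-Y48E kept binding to SIN3 only, whereas HDAC1-E63R also kept MIER, RERE and part of CoREST while losing NuRD and MiDAC. In ESCs these complexes restrain germline, 2-cell-stage and lineage genes and also support the genes that hold the cells in the pluripotent state. The comparison therefore asks which transcripts differ between cells left with SIN3 alone and cells left with a wider but still incomplete set of HDAC1 complexes.

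Counts assigned to genes ran from 9019615 to 10046717 in the OHT-treated HDAC1-Y48E libraries and from 9718516 to 11454638 in the OHT-treated HDAC1-E63R libraries. Levels are given as CPM (counts of a gene per 1000000 counts of the library, after TMM scaling), always in the order of replicates 1, 2 and 3, and fold changes are log2 values of HDAC1-Y48E over HDAC1-E63R with their standard error (SE). Genes were called differentially expressed (DEGs) when edgeR's quasi-likelihood test gave an adjusted p (Benjamini-Hochberg) under 0.01 and the change exceeded 2-fold. One library stood apart, untreated HDAC1-E63R replicate 3, with a TMM factor of 0.814 and 42.9% of its entries outside any feature. It does not enter the treated groups, but it does touch the shared estimate of spread and every untreated value of HDAC1-E63R. The ESC markers were detected in all 6 libraries, 8 of 8, and their summed level was 3695 to 4007 CPM in HDAC1-E63R and 2309 to 2447 CPM in HDAC1-Y48E. Fibroblast markers summed to 61.3 to 68.7 and 95.4 to 106 CPM, with Fap at 0 throughout and 0 of 4 tested markers called, while blood markers summed to 21.1 to 27.6 and 28 to 35.1 CPM, with Hbb-bt and Hba-x at 0 and 0 of 4 called. The part of such cells in the results was not tested, and in bulk libraries fewer cells of a type and less RNA per cell cannot be told apart.

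The targeted genes were at similar levels in both groups. Hdac1 (GRCm38 chr4:129516104-129542713, minus strand), the transgene's own symbol, measured 112, 123 and 131 CPM in HDAC1-E63R and 110, 111 and 113 CPM in HDAC1-Y48E, a difference of -0.13 ± 0.09 (SE, n = 3 per group, edgeR adjusted p = 0.363). Hdac2 (chr10:36974544-37001889, plus strand), its paralogue, measured 150, 152 and 158 CPM against 152, 142 and 139 CPM, a difference of -0.09 ± 0.11 (edgeR adjusted p = 0.655). Reads of a Flag-tagged transgene and of endogenous Hdac1 are counted together, and 1450 bases of the Hdac1 transcript match another annotated copy at 96.3% identity, so the Hdac1 totals do not check the loss of the endogenous gene. Hdac2 was not on the vector, and its counts changed little with OHT in the mutant lines. Its means went from 177 to 153 CPM in HDAC1-E63R (-0.21, edgeR adjusted p = 0.194) and from 151 to 144 CPM in HDAC1-Y48E (-0.07, adjusted p = 0.649). In HDAC1-WT they went from 195 to 124 CPM. What these counts mean for the removal of Hdac2 was not tested. Among complex genes, 0 of 20 SIN3, 0 of 18 NuRD and 0 of 21 CoREST, MiDAC, MIER and RERE genes tested were DEGs. Their median differences were -0.03, -0.09 and -0.04. Over all tested genes the share of DEGs was 4.49%, at which lists of this size would hold few. By the adjusted p alone 1, 1 and 2 members were lower and 0 higher in each list. Mta2, a NuRD scaffold that holds HDAC1, was 125, 135 and 133 CPM in HDAC1-E63R and 90.1, 88.9 and 85.7 CPM in HDAC1-Y48E, which passed the adjusted p (5.23e-04) at -0.57 and missed the 2-fold limit. Rcor3, a CoREST scaffold, had a difference of 0.97 with an adjusted p of 0.0138.

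After OHT, 844 of 18791 tested genes were DEGs (4.49%), of which 445 were higher (2.37%) and 399 lower (2.12%) in HDAC1-Y48E than in HDAC1-E63R. The median change over all tested genes was 0.01 and the median absolute change 0.34. By the adjusted p alone, 813 genes were higher and 1148 lower. All 844 DEGs had 3 libraries of one line on one side of the 3 of the other, as did 8705 of the 18791 tested genes. Before OHT the same 2 lines differed in 183 genes (0.974%), 80 higher (0.426%) and 103 lower (0.548%). Of the 445 genes higher after OHT, 43 (9.66%) were already DEGs in that direction in untreated cells, and their 445 changes had a median of 1.66 after OHT and 0.52 before. Of the 399 lower genes, 72 (18%) were already DEGs, with medians of -1.39 after OHT and -0.39 before. In the reverse view, 43 of the 80 genes higher before OHT (53.8%) and 72 of the 103 lower ones (69.9%) were DEGs after it, and no library is shared between these comparisons. The interaction test, which asks whether the response to OHT differed between the lines, called 246 genes (1.31%), 60 with a more positive (0.319%) and 186 with a more negative response (0.99%) in HDAC1-Y48E. It called 40 of the 445 higher DEGs (8.99%) and 114 of the 399 lower DEGs (28.6%) in their own direction. A further 362 higher (81.3%) and 214 lower DEGs (53.6%) were called neither before OHT nor by the interaction. For these genes the tests do not say whether the difference arose with OHT.

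**Figure D1:**
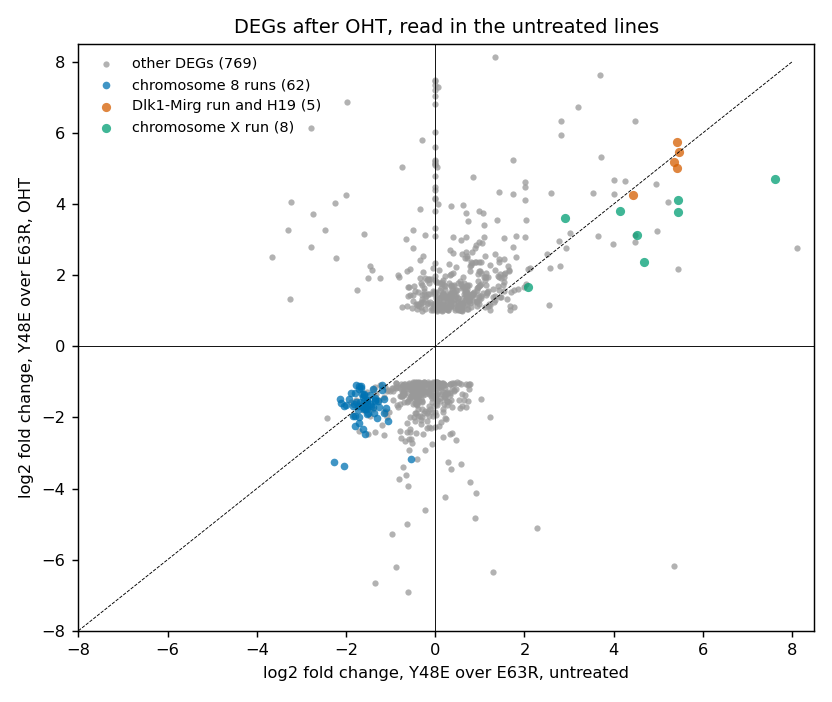
Each point is one of the 844 DEGs, with its log2 fold change of HDAC1-Y48E over HDAC1-E63R in untreated cells on the horizontal axis and after OHT on the vertical axis. The 62 genes of the chromosome 8 runs, the 5 genes of chromosome 12 with H19 and the 8 genes of the chromosome X run are marked apart from the other 769. All 72 genes of the chromosome 8 runs, including those that were not DEGs and are not drawn, have medians of -1.57 before and -1.58 after OHT. Xlr5b (7.61 before, 4.69 after) and other genes of the chromosome X run lie under the diagonal.

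The number of higher DEGs leaned on the replicates. It was 274 without HDAC1-E63R replicate 1, 288 without replicate 2, 277 without replicate 3 and 293 without HDAC1-Y48E replicate 3, whereas a fit on these 6 libraries alone called 1012. Over the omission of each of the 6 treated libraries the higher DEGs ran from 274 to 314 and the lower DEGs from 325 to 347. The lower DEGs were 474 in the 6-library fit. The interaction counts became 183 and 282 without untreated HDAC1-E63R replicate 3, and its higher count became 93 without untreated HDAC1-E63R replicate 2. Of 137 DEGs named by rule or, for 16 of them, after their values were seen, 87 kept the call without each of the 6 treated libraries, and a gene given as a DEG below belongs to these unless a loss is stated.

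Genes of the pluripotency network were lower in HDAC1-Y48E than in HDAC1-E63R. In a list of 29 core and naive pluripotency genes, 11 were lower DEGs and 1 was higher (41.4% called), with a median of -0.85, against 0 called and a median of -0.08 in untreated cells. By the adjusted p alone 20 members were lower and 2 higher. The core factors missed the 2-fold limit while passing the adjusted p. Pou5f1 (Oct4), the POU factor at the centre of the network, had 685, 735 and 717 CPM in HDAC1-E63R and 384, 395 and 336 CPM in HDAC1-Y48E, a change of -0.94 ± 0.13 (edgeR adjusted p = 1.94e-05). Sox2, its DNA-binding partner, stood at 337, 341 and 370 against 199, 189 and 192 CPM (-0.85, adjusted p = 8.01e-06). Nanog, the homeodomain factor of the naive state, had 389, 410 and 412 against 257, 254 and 251 CPM (-0.67, adjusted p = 3.22e-05). In all 3 genes every HDAC1-Y48E library lay under every HDAC1-E63R library. Groups were apart like this, in one direction or the other, in 8705 of the 18791 tested genes.

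The naive-state regulators showed the larger differences. Esrrb (chr12:86361117-86521628, plus strand), an orphan nuclear receptor, was measured at 384, 377 and 373 CPM in HDAC1-E63R and 180, 184 and 173 CPM in HDAC1-Y48E, -1.08 ± 0.11 (edgeR adjusted p = 2.75e-07), although its untreated difference was 0.16 (adjusted p = 0.444). Klf2 (chr8:72319033-72321656, plus strand), a Krüppel-like factor, had 130, 143 and 126 against 43.4, 40.4 and 35.4 CPM, -1.75 ± 0.17 (adjusted p = 1.14e-07). Prdm14 (chr1:13113457-13127163, minus strand), which holds back FGF signalling and DNA methylation in naive ESCs, had 9.11, 11.9 and 13.3 against 2.71, 3.9 and 3.78 CPM, -1.71 ± 0.2 (adjusted p = 2.27e-06). The groups of these genes were far apart, and the order was the other way round before OHT for Prdm14, where the means were 34.2 CPM in HDAC1-Y48E and 21.3 CPM in HDAC1-E63R (0.68, adjusted p = 0.0194, no DEG). Tcl1, an AKT co-activator, showed the largest decrease of the list, from 56.5, 68 and 65.4 to 15.6, 12.3 and 13.8 CPM (-2.19 ± 0.18, adjusted p = 1.3e-08). Nr0b1 (Dax1), a nuclear receptor, was -1.84, Nr5a2, a receptor that supports Oct4, was -1.57, and Gdf3, a TGF-β family ligand, was -1.54. Tdgf1, the Nodal co-receptor Cripto, fell between lines from 1146, 1136 and 1168 to 434, 471 and 419 CPM (-1.38, adjusted p = 7.95e-09), and Utf1, a chromatin-associated factor of undifferentiated cells, was -1.14. Tfcp2l1, another naive factor, had -1.05 but came to -0.99 without HDAC1-E63R replicate 1. Reads of Tdgf1 may be shared with Tdgf1-ps1, which matches 512 bases of it at 98.8% identity.

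Not every member followed. Dppa3 (Stella), a maternal factor that protects against demethylation, was higher, at 60.9, 54.4 and 52.5 CPM in HDAC1-Y48E against 19.3, 13.9 and 19.8 CPM in HDAC1-E63R (1.66 ± 0.22, adjusted p = 1.4e-05). Fbxo15 was 0.68 (adjusted p = 3.04e-04) and did not reach 2-fold. Klf4 (0.2, adjusted p = 0.18), Sall4 (-0.14), Lin28a (0.14) and Dppa5a (-0.54, adjusted p = 0.0557) did not pass. Dppa3 shares 451 bases at 98.2% identity with Dppa3-ps, so its reads may be split between the copies. The interaction called 11 members of the list with a more negative response and 1 with a more positive response in HDAC1-Y48E, among them Nanog (-1.07, adjusted p = 4.12e-05), Esrrb (-1.24) and Prdm14 (-2.39).

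**Figure D2:**
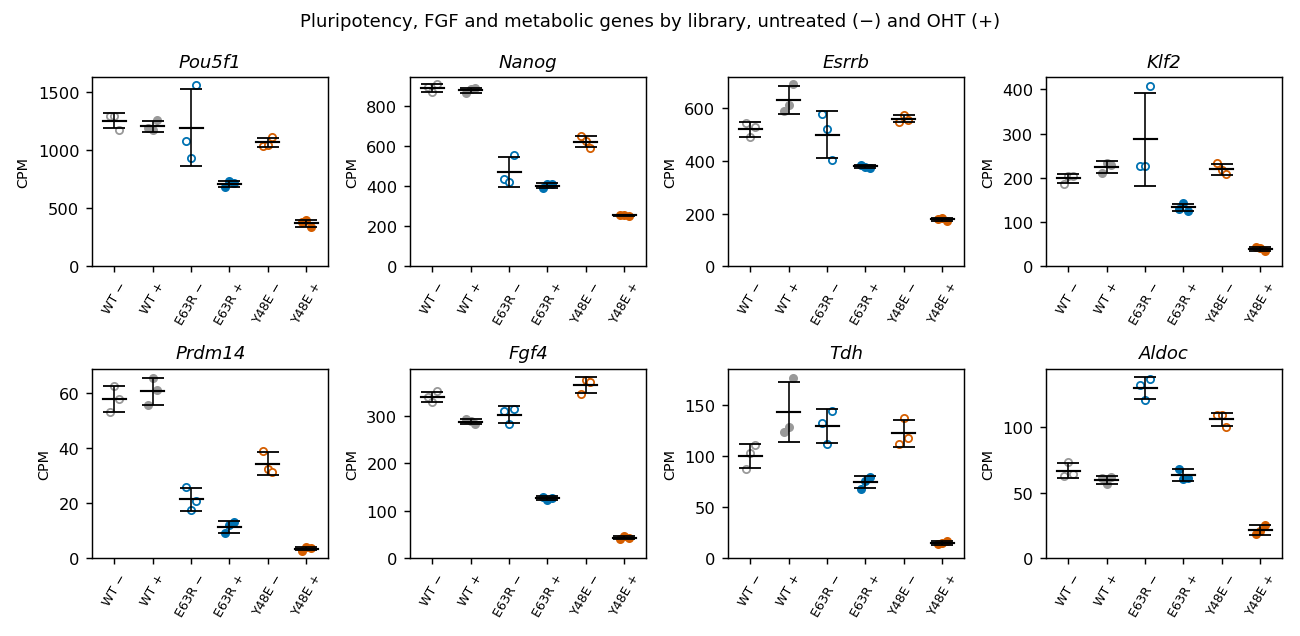
CPM in each library (points) with the group mean and SD (bars) for Pou5f1, Nanog, Esrrb, Klf2, Prdm14, Fgf4, Tdh and Aldoc in HDAC1-WT, HDAC1-E63R and HDAC1-Y48E cells, untreated (open) and after OHT (filled). In the OHT-treated cells all 8 genes had the 3 HDAC1-Y48E libraries under the 3 HDAC1-E63R libraries, for Fgf4 at 41.4 to 46.9 CPM against 122 to 130 CPM. Groups were apart, in either direction, in 8705 of 18791 tested genes.

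**Figure D3:**
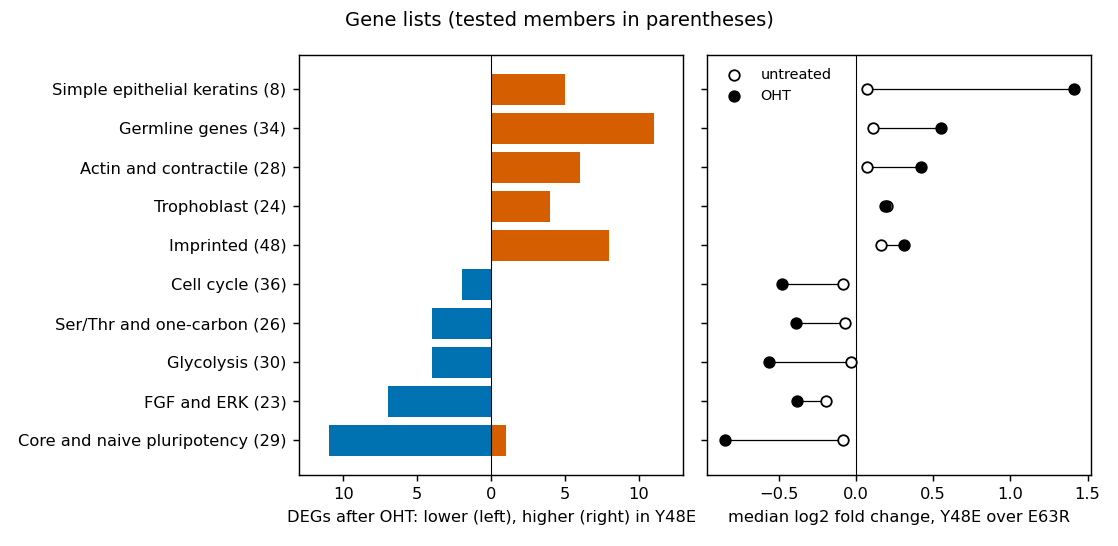
For each gene list, the bars count DEGs of HDAC1-Y48E over HDAC1-E63R after OHT, lower genes to the left and higher genes to the right, and the points give the list's median log2 fold change in untreated cells (open) and after OHT (filled). The pluripotency list had 11 lower and 1 higher DEGs, and the simple-epithelial keratin list had 5 higher and 0 lower.

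Tet1 and Tet2, the enzymes that oxidise methylcytosine, were lower as well. Tet1 had 323, 310 and 277 CPM in HDAC1-E63R and 87, 81.5 and 90.6 CPM in HDAC1-Y48E (-1.81 ± 0.2, adjusted p = 7.77e-07), with groups more than 3-fold apart. Tet2 was -1.18 (adjusted p = 0.00413), a call that was lost in 5 of 6 omissions, with adjusted p up to 0.0289. The DNA methyltransferases did not reach 2-fold: Dnmt3a 0.51 (adjusted p = 0.0104), Dnmt3b -0.36 (0.125) and Dnmt3l 0.49 (0.0029).

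Several growth-factor genes were also lower in HDAC1-Y48E. Of 23 tested FGF and ERK-feedback genes, 7 were lower DEGs and 0 higher (30.4%), with a median of -0.38, while untreated cells had 3 lower and 2 higher with a median of -0.19. Fgf4 (chr7:144847367-144865243, plus strand), the ligand ESCs secrete to drive ERK signalling, had 130, 122 and 128 CPM in HDAC1-E63R and 41.4, 46.9 and 42.5 CPM in HDAC1-Y48E (-1.54 ± 0.09, adjusted p = 6.5e-11). Its untreated difference was 0.27 (adjusted p = 0.083). Fgf17 and Fgf15, further ligands, were -1.94 (8.03, 8.58 and 4.6 against 1.91, 1.99 and 1.62 CPM) and -1.57, and 24.9% of Fgf15 overlaps Gm26793 on the opposite strand. Etv4, an ETS factor that ERK signalling switches on, had 82.4, 85.9 and 89.5 against 31.4, 30.1 and 22.9 CPM (-1.61), and Fgfr1, a receptor, 189, 172 and 197 against 70, 55.6 and 61.6 CPM (-1.58). Both genes differed as much before OHT, at -1.71 and -1.77. Etv5 reached -1.02 but came under 2-fold without HDAC1-Y48E replicate 3 or HDAC1-E63R replicate 1, and Spry4, a feedback inhibitor, had -1.03 with an adjusted p of 0.0052 that rose to between 0.0142 and 0.029 without any one library. Other responders of the pathway were on the other side of 0 and under 2-fold: Dusp4 0.98 (adjusted p = 2.34e-04), Egr1 0.86 and Spry2 0.68 (0.0063).

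Single genes of other signalling pathways were lower, while their lists as a whole were not. Of 14 Nodal and mesendoderm genes 1 was a lower DEG (7.14%), with a median of -0.01 that ran up to 0.34 without 1 library (HDAC1-Y48E replicate 2), and of 20 LIF and STAT3 genes 1 (5%), with a median of 0.01. The share over all tested genes was 4.49%. Inhbb (chr1:119415465-119422248, minus strand), the activin B subunit, was at 33.4, 33.8 and 34 CPM in HDAC1-E63R and 3.01, 2.99 and 3.6 CPM in HDAC1-Y48E, one of the largest decreases at -3.39 ± 0.17 (edgeR adjusted p = 3.42e-12), against -0.72 before OHT. Lefty1, a Nodal antagonist and the DEG of the Nodal list, had 55.7, 60.1 and 45.1 against 7.53, 10.3 and 10.4 CPM (-2.5 ± 0.24, adjusted p = 1.07e-07), and it was already lower before OHT at -1.16. Socs2, a feedback inhibitor of cytokine signalling, was the DEG of the LIF list, with 40.7, 37.8 and 53.5 against 17.3, 16.8 and 13 CPM (-1.49, adjusted p = 1.04e-05), while Lifr was -0.77 and Stat3 0.12. Notch4, a receptor, was 17.1, 26.6 and 21.6 against 3.41, 2.45 and 2.7 CPM (-2.93, adjusted p = 1.95e-06). Vegfa, the angiogenic ligand, stood at 168, 173 and 175 against 62.5, 61.8 and 72.6 CPM (-1.39, adjusted p = 6.63e-10). Bhlhe40, a transcriptional repressor, had 154, 153 and 168 against 49.9, 49.9 and 53.8 CPM (-1.63, adjusted p = 3.45e-10). The 2 groups did not overlap in any of these genes, which held for all 844 DEGs and adds nothing to the calls.

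Metabolic genes were lower in HDAC1-Y48E, mostly by less than 2-fold. Of 30 glycolysis genes 4 were lower DEGs and 0 higher (13.3%), the median was -0.56 against -0.03 before OHT, and 17 members were lower by the adjusted p alone with 0 higher. Aldoc, an aldolase, had 68.4, 60.7 and 61.2 CPM in HDAC1-E63R and 18.4, 20.8 and 25.5 CPM in HDAC1-Y48E (-1.56 ± 0.12, adjusted p = 6.53e-09). Hk2, the hexokinase at the entry of the pathway, had 643, 625 and 584 against 267, 306 and 282 CPM (-1.11, adjusted p = 2.24e-07). Ldhb, a lactate dehydrogenase subunit, and Tpi1, triose phosphate isomerase, were -1.19 and -1.14, both with near-identical annotated copies (Gm5514 and Tpi-rs11). Gpi1 (-0.92), the glucose transporter Slc2a1 (-0.74), Gapdh (-0.59) and Pkm (-0.59) passed the adjusted p only. Ldha, the other lactate dehydrogenase subunit, did not pass (-0.36, adjusted p = 0.0315).

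Threonine catabolism gave the sharpest of these changes. Tdh (chr14:63492347-63509092, minus strand), threonine dehydrogenase, which feeds one-carbon metabolism in mouse ESCs, measured 67.9, 75.5 and 79.4 CPM in HDAC1-E63R and 13.6, 14.7 and 17.2 CPM in HDAC1-Y48E (-2.29 ± 0.15, adjusted p = 6.63e-10), and the untreated means were 130 and 122 CPM. The copy Gm13929 matches 1125 bases of Tdh at 97.1% identity. Among 26 serine, threonine and one-carbon genes, 4 were lower DEGs (15.4%) and 0 higher, with a median of -0.39 (-0.07 untreated) and 11 lower by the adjusted p alone. The cationic amino acid transporter Slc7a3 was -1.2 (adjusted p = 8.36e-04). Cbs and Cth, the transsulfuration enzymes, were -1.06 and -1.01, and each came under 2-fold in some omissions, to -0.91 and -0.93 at the least. Phgdh, the first enzyme of serine synthesis, was -0.16 (adjusted p = 0.503).

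Of 36 cell-cycle genes 2 were lower DEGs and 0 higher, with a median of -0.48 (-0.08 untreated), and 18 were lower by the adjusted p alone. These were mostly genes of DNA replication and the G1/S transition. Cdc6, a replication-licensing factor, had 42.1, 40.1 and 39 CPM in HDAC1-E63R and 19.2, 19.2 and 18.5 CPM in HDAC1-Y48E (-1.09, adjusted p = 1.77e-06), Cdt1 was -0.88, Ccnd1 -0.92, Rrm2 -0.85 and the helicase subunits Mcm2 to Mcm7 lay between -0.51 (Mcm2) and -0.86 (Mcm3). Bub1, a mitotic checkpoint kinase, sat on the limit at -1 and came to -0.98 without HDAC1-Y48E replicate 1 or HDAC1-E63R replicate 3. Some other mitotic genes, picked after their values were seen, differed little: Ccna2 -0.04, Ccnb1 -0.08, Cdk1 -0.05, Plk1 0.04 and Mki67 -0.08, none of which passed. Wdr76, a ubiquitin-ligase adaptor, had one of the most precise decreases, from 92.8, 88.7 and 94 to 23.3, 24.3 and 23.5 CPM (-1.95 ± 0.11, adjusted p = 4.4e-11).

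Simple-epithelial keratins were higher in HDAC1-Y48E. Of 8 tested, 5 were higher DEGs and 0 lower (62.5%), with a median of 1.41 against 0.07 and 0 called in untreated cells. The count was 3 without HDAC1-Y48E replicate 1 or HDAC1-E63R replicate 3. Krt8 (chr15:101996698-102004482, minus strand) and Krt18 (chr15:102028180-102032027, plus strand), neighbouring genes whose products pair into the filaments of simple epithelia, moved alike. Krt8 had 209, 233 and 234 CPM in HDAC1-E63R and 714, 749 and 763 CPM in HDAC1-Y48E (1.72 ± 0.11, adjusted p = 2.34e-10). Krt18 had 113, 124 and 119 against 433, 439 and 477 CPM (1.92 ± 0.2, adjusted p = 3.21e-07). Both were far under these levels before OHT, with means of 68.9 and 56.4 CPM for Krt8 and 53.4 and 41.8 CPM for Krt18 in HDAC1-E63R and HDAC1-Y48E. Krt19 was at 153, 164 and 150 against 322, 331 and 349 CPM (1.1, adjusted p = 1.02e-04), and Krt7 at 0.95 missed the fold limit. Krt80 (2.14) and Krt23 (4.07) lost the call in 4 and in 6 of the 6 omissions, with adjusted p up to 0.0299 and 0.0417. Krt8-ps matches 941 bases of Krt8 at 98.6% identity.

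Epidermal genes did not move together. Of 24 tested, 3 were higher and 1 lower, with a median of 0.32, and the higher count was 1 without HDAC1-Y48E replicates 2 or 3 or HDAC1-E63R replicate 1. Krt14, a basal keratin, had 10.8, 12.9 and 10.7 CPM in HDAC1-E63R against 27.2, 29 and 30.9 CPM in HDAC1-Y48E (1.34, adjusted p = 0.00706), but no omission of 1 library kept its call (0.0254 to 0.0448). Its partner Krt5 was 12.2, 11.6 and 10.5 against 14.4, 16.1 and 15.7 CPM (0.43, adjusted p = 0.409), and Krtdap, a differentiation product, was -0.08 (0.91). In untreated cells of the 2 lines Krt5 was at 0 in all 6 libraries and Krt14 had means of 0 in HDAC1-Y48E and 0.0924 CPM in HDAC1-E63R. Akr1cl, an aldo-keto reductase, was among the clearest increases, at 6.87, 9.72 and 6.95 against 71.2, 68.4 and 58.1 CPM (3.07 ± 0.28, adjusted p = 1.66e-07).

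Id genes, which encode inhibitors of basic helix-loop-helix factors and respond to BMP, were higher, while the ligand was not. Id3 had 79.4, 84.5 and 93.3 CPM in HDAC1-E63R and 220, 218 and 253 CPM in HDAC1-Y48E (1.43 ± 0.15, adjusted p = 3.1e-07), Id2 57.4, 65 and 49.1 against 143, 135 and 165 CPM (1.37, adjusted p = 3.94e-04), and Id1 was 0.97, under the fold limit. Bmp4, the ligand, was lower at 30.9, 26.4 and 28.3 against 13.3, 15.2 and 10.3 CPM (-1.14, adjusted p = 0.00104), although not without HDAC1-Y48E replicate 3 (0.0121). Over the 23 tested genes of this list the count was 2 higher and 1 lower (13%), with a median of 0.23.

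Contractile and cytoskeletal genes had 6 higher DEGs of 28 and 0 lower (21.4%), with a median of 0.42 (0.07 untreated). The count was 3 without HDAC1-Y48E replicates 2 or 3 or HDAC1-E63R replicates 1 or 3. Cyr61, a matricellular protein and a target of YAP, had 32.4, 34.5 and 33.7 CPM in HDAC1-E63R and 142, 143 and 150 CPM in HDAC1-Y48E (2.11 ± 0.22, adjusted p = 5.65e-07). Acta1, skeletal actin, had 23.3, 25.7 and 21.6 against 80.9, 79.3 and 85.4 CPM (1.8), and Myl9, a regulatory myosin light chain, 10.9, 8.96 and 7.53 against 32, 33.9 and 30.6 CPM (1.81). The groups of these 3 genes were over 2-fold apart in every pair of libraries. Actc1, Tagln and Ankrd1 lost the call in 6, 4 and 5 of the 6 omissions. Tight and adherens junction genes (27 tested, median 0.12), genes of the epithelial-mesenchymal transition (17, 0.3) and S100 and annexin genes (19, 0.25) had 0 DEGs in either direction. Over all tested genes 4.49% were DEGs, a share at which lists of this size would hold few. By the adjusted p alone the 3 lists had 2 higher and 3 lower, 3 and 0, and 3 and 2 members.

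**Figure D4:**
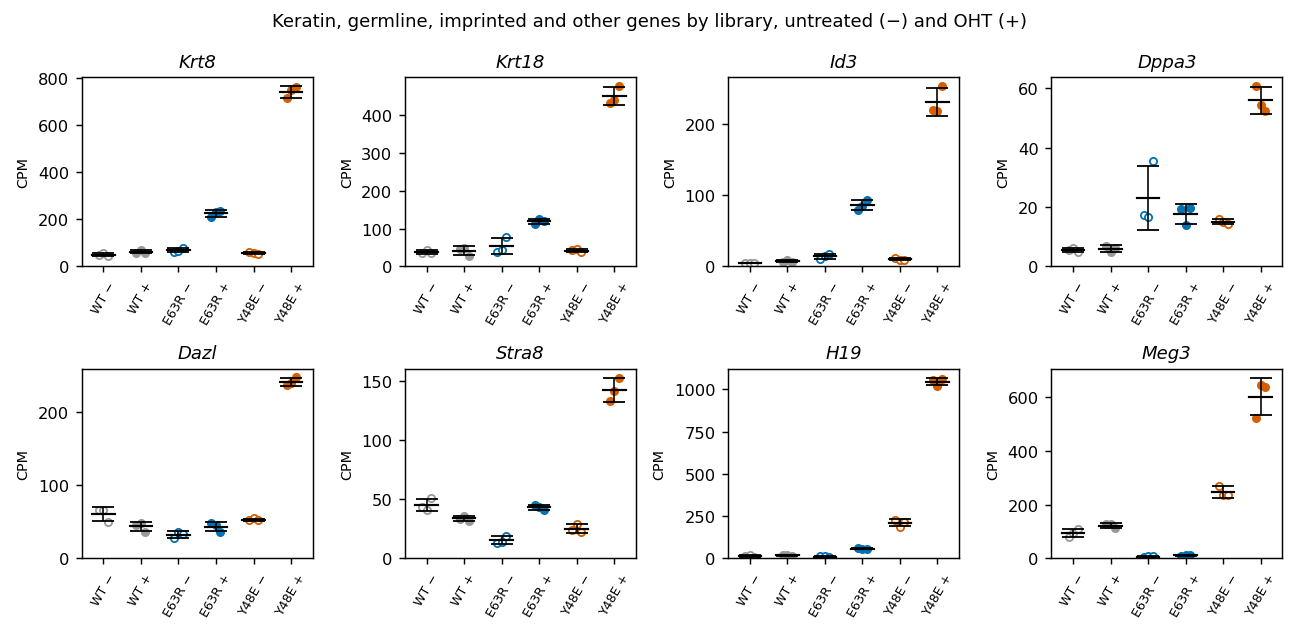
CPM in each library (points) with the group mean and SD (bars) for Krt8, Krt18, Id3, Dppa3, Dazl, Stra8, H19 and Meg3 in HDAC1-WT, HDAC1-E63R and HDAC1-Y48E cells, untreated (open) and after OHT (filled). H19 and Meg3 were apart between the mutant lines before OHT, with untreated means of 210 and 247 CPM in HDAC1-Y48E and 9.6 and 5.82 CPM in HDAC1-E63R. Krt8 was slightly lower in untreated HDAC1-Y48E, at 52.3 to 59.4 CPM against 62.8 to 77.2 CPM in HDAC1-E63R (-0.29, adjusted p = 0.156), and the untreated libraries of Krt18 and Id3 overlapped.

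Meiotic and germline genes were higher in HDAC1-Y48E. Of 34 tested, 11 were higher DEGs and 0 lower (32.4%), with a median of 0.55, against 0 called and a median of 0.11 before OHT. Without HDAC1-E63R replicate 3 the count was 7. By the adjusted p alone 16 were higher and 2 lower, the latter Sycp3 (-0.69) and Prdm1 (-0.79). Dazl (chr17:50279395-50293636, minus strand), an RNA-binding protein of germ cells, had 47.7, 45.2 and 36 CPM in HDAC1-E63R and 238, 240 and 248 CPM in HDAC1-Y48E (2.49 ± 0.14, adjusted p = 3.4e-11), and its untreated difference was 0.71. Stra8, the retinoic acid-responsive gatekeeper of meiosis, had 45.2, 43.4 and 41 against 133, 142 and 153 CPM (1.72 ± 0.14, adjusted p = 9.34e-09). Asz1, a piRNA-pathway protein, went from 0.331, 1.05 and 0.978 to 14.1, 16.5 and 16.7 CPM (4.33 ± 0.55, adjusted p = 6.62e-06). Of the 3, Asz1 had the widest gap and the lowest counts.

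Structural genes of the synaptonemal complex were mixed. Sycp1, its transverse filament, had 10, 13.3 and 13 CPM in HDAC1-E63R and 34.3, 32.6 and 31.8 CPM in HDAC1-Y48E (1.44 ± 0.25, adjusted p = 2.03e-04), and Sycp2, a lateral element, had 21.3, 21.9 and 23.3 against 44.1, 51.5 and 48.5 CPM (1.12, adjusted p = 3.67e-04). The meiotic cohesin Rec8 and the central-element gene Syce1 were 1.04 and 1.02, coming to 0.93 without HDAC1-E63R replicate 3 and to 0.98 without HDAC1-E63R replicate 1. Tex15, needed for meiotic recombination, was 1.47 and lost the call without HDAC1-E63R replicate 3 (adjusted p = 0.0129). Rpl10l, a testis ribosomal protein gene, had 36.6, 31.6 and 28.8 against 87.2, 89.5 and 89.2 CPM (1.45, adjusted p = 3.22e-05). Ddx4 (-0.09), Mael (0.13), Hormad1 (0.08) and Dmc1 (-0.23) did not pass.

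The E-box CACGTG is the site of the MGA-MAX pair, part of a Polycomb repressor of germline genes, and promoters of this list were therefore searched for those letters, which read the same on both strands. In the 250 bases before the start, RefSeq sequences of build GRCm38.p6 held the motif in 11 of 30 germline promoters (36.7%), in 3 of the 10 with a sequence among the higher DEGs (30%), and in 1027 of 12440 promoters of tested genes (8.26%). The match is a description of letters and not a test of binding. The 3 promoters of higher DEGs that hold it are given in their gene's direction with the motif in capitals, at position -94 in Sycp1 (chr3:102936101-102936350, minus strand), -11 in Tdrd1 (chr19:56825959-56826208, plus strand) and -49 in Taf7l (chrX:134476491-134476740, minus strand), counted from the annotated start:
Sycp1: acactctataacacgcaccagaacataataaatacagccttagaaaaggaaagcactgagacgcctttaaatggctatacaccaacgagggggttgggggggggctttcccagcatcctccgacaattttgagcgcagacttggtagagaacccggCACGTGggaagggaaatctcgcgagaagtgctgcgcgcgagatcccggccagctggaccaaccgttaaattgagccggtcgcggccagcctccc
Tdrd1: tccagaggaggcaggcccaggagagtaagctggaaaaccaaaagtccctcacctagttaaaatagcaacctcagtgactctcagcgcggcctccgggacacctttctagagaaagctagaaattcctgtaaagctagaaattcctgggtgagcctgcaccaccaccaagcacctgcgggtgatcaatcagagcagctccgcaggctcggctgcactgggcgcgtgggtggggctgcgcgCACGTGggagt
Taf7l: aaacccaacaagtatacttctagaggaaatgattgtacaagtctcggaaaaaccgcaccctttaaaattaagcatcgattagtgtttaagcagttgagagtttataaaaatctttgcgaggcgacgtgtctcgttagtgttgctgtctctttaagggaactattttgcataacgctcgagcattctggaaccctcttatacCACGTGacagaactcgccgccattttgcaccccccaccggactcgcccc

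Sycp1 was the firmest of the 3. Tdrd1, a Tudor protein of the piRNA pathway, had 6.21, 6.67 and 3.13 CPM in HDAC1-E63R and 13.3, 11.8 and 11.7 CPM in HDAC1-Y48E (1.2, adjusted p = 0.00987), and its call was lost without any one library (0.0156 to 0.0716). Taf7l, a germ-cell TFIID subunit on the X chromosome, had 12.1, 15.9 and 17 against 30.5, 37 and 36.4 CPM (1.21, adjusted p = 0.00216), lost without HDAC1-Y48E replicates 2 or 3 or HDAC1-E63R replicate 1 (0.012 to 0.0213). Dazl, Stra8 and Asz1, which had the largest differences of the list, are not among the promoters with the motif.

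The X chromosome held 64 of the 445 higher DEGs (14.4%), while 3.61% of tested genes lie there, and 8 of the lower ones. Among 678 X-linked genes the median was 0.21 after OHT and 0.03 before, and 16 were higher and 2 lower before OHT. Many belonged to reproductive homeobox and cancer-testis families, which were picked after their values were seen, so their counts describe and do not test. Of 45 tested members of 5 families (Rhox, Xlr, Magea, Mageb and Fthl17), 27 were higher and 0 lower after OHT, against 10 and 0 before. Of 11 Xlr genes, 9 were higher after OHT and 8 already in untreated cells, with medians of 3.77 and 4.26. Of 19 Rhox genes, 9 were higher after OHT and 1 before (medians 2.78 and 0.85), and of 6 Magea genes 4 and 0. The interaction called 1 Xlr gene and 0 genes of the Rhox and Magea families. For Magea3 and Magea5 it could not make a call, since both were at 0 in untreated cells of both lines. Their interaction values of 7.49 and 6.8 had SEs of 16142 and 12387. Within a line, 6 of 6 Magea genes were called higher after OHT than before in HDAC1-Y48E and 0 in HDAC1-E63R. Members of these families are close copies, and reads may be divided among them.

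Magea5 had 1 count in the 3 HDAC1-E63R libraries together and 150 in the HDAC1-Y48E libraries, at 5.82, 4.81 and 3.51 CPM, a ratio of 153 with a 95% counting interval of 27.1 to 6090 (edgeR adjusted p = 6.88e-04). It was at 0 counts in all untreated libraries of both lines. Magea3 and Magea6, at 0 in HDAC1-E63R, were at least 23.5-fold and at least 21.5-fold higher against a floor of 3 counts over the group, but neither kept its call without any one library (adjusted p up to 0.0284 and 0.0274). Xlr5b had 1.66, 0.476 and 0.978 CPM in HDAC1-E63R against 27.8, 28.1 and 26.5 CPM in HDAC1-Y48E (4.69 ± 0.44, adjusted p = 1.1e-07), and it was apart before OHT by a ratio of 229 (95% counting interval 62.9 to 1890). Scml2 (chrX:161117193-161258213, plus strand), a Polycomb-group protein of the germline, was the X-linked gene with the smallest adjusted p, at 15.8, 17 and 16.4 against 95.6, 108 and 102 CPM (2.64 ± 0.12, adjusted p = 9.14e-13). In HDAC1-WT cells Scml2 had means of 95.2 CPM untreated and 78 CPM after OHT, a level the HDAC1-E63R line did not reach in either state (6.85 CPM untreated). Nxf3, an mRNA export factor, was 2.77 after OHT and at least 31.7-fold higher before it.

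Non-coding transcripts of imprinted domains were far apart between the lines, and already so before OHT. Of 48 imprinted genes 8 were higher and 0 lower (16.7%), with a median of 0.31, while untreated cells had 5 higher and 3 lower with a median of 0.16. Meg3 (chr12:109541001-109571726, plus strand), the maternally expressed non-coding RNA of the Dlk1-Dio3 domain, had 9.19, 12.2 and 12.3 CPM in HDAC1-E63R and 522, 645 and 639 CPM in HDAC1-Y48E (5.75 ± 0.19, adjusted p = 3.15e-15), and its untreated difference was 5.43. Rian, a neighbouring small nucleolar RNA host, had 12.2, 20.7 and 21.1 against 623, 650 and 677 CPM (5.18, untreated 5.35). Mirg, a host of microRNAs in the same domain, was 5.45 after OHT and 5.46 before. HDAC1-WT cells stood between the mutant lines, with OHT means of 121 CPM for Meg3 and 102 CPM for Rian. The 5 genes from Dlk1 to Mirg had median changes of 5.43 untreated and 5.18 after OHT.

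H19 (chr7:142575529-142578143, minus strand), the non-coding RNA expressed from the maternal allele beside Igf2, had 58.2, 54.9 and 53.3 CPM in HDAC1-E63R and 1056, 1022 and 1059 CPM in HDAC1-Y48E (4.24 ± 0.17, adjusted p = 6.54e-14), and was 4.44 before OHT. HDAC1-WT had a mean of 16.9 CPM after OHT, so here HDAC1-Y48E lay farther from HDAC1-WT than HDAC1-E63R did. Igf2, the paternally expressed growth factor of that locus, ran the other way at 7.95, 8.77 and 9.68 against 2.01, 1.63 and 0.9 CPM (-2.53, adjusted p = 0.0118) and was not a DEG. Before OHT Igf2 was a lower DEG (edgeR adjusted p = 0.00417), with 0 counts in HDAC1-Y48E and 59 in HDAC1-E63R, at least 18.8-fold. Gm49394 matches 3598 bases of Igf2 at 100% identity. Herc3, a ubiquitin ligase gene that hosts the imprinted Nap1l5, was a DEG after OHT and not before, with 25.3, 29.3 and 25.8 against 112, 109 and 102 CPM (2.01 ± 0.17, adjusted p = 2.82e-08), 0.33 untreated and an interaction of 1.68 (adjusted p = 2.83e-04). Grb10 (1.13) lost its call without HDAC1-Y48E replicate 3 or HDAC1-E63R replicate 1 (adjusted p up to 0.0136), and Snrpn (1.34) without HDAC1-E63R replicate 3 (0.0141). Cdkn1c, a cyclin-dependent kinase inhibitor, was -0.52 after OHT (adjusted p = 0.0148) and -2.06 before, an interaction of 1.55 (adjusted p = 1.16e-04). Reads of Meg3 and the antisense Gm26906 overlap, as do those of H19 and Gm27483.

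On chromosome 8, 93 genes were lower DEGs, 23.3% of the 399, against 5.48% of tested genes on that chromosome. These included 4 stretches, found after the data were seen as runs of 7 neighbouring expressed genes (at least 2 CPM) with a running median beyond 1 in untreated cells. The stretches held 72 genes, of which 62 were lower DEGs after OHT (86.1%). The runs were chr8:25154552-27276674 (30 genes, Tacc1 to Eif4ebp1), chr8:53511727-56593939 (7, Aga to Fbxo8), chr8:60632827-66890564 (18, Mfap3l to Naf1) and chr8:70016123-70353278 (17, Mau2 to Upf1). Their medians after OHT, which the choice did not use, were -1.52, -1.53, -1.62 and -1.68, beside -1.51, -1.53, -1.58 and -1.74 before. In untreated cells these 72 genes had a median log2 ratio of -1.0 in HDAC1-Y48E and 0.5 in HDAC1-E63R over HDAC1-WT. The 749 other expressed genes of the chromosome had 4.01% lower DEGs and a median of -0.04, and 13409 genes of other chromosomes had 2.18%. In both mutant lines the 749 genes lay above HDAC1-WT in untreated cells, by medians of 0.42 and 0.44. The copy number of these regions was not tested.

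**Figure D5:**
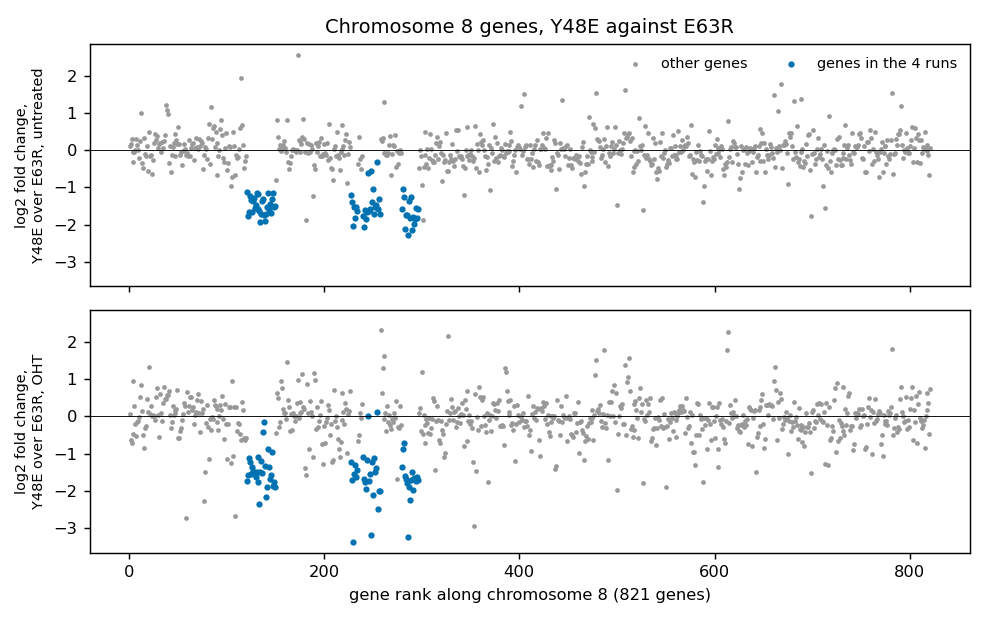
Log2 fold changes of HDAC1-Y48E over HDAC1-E63R for 821 expressed genes of chromosome 8 in their order along the chromosome, untreated and after OHT. The 72 genes of the 4 runs sit near -1.58 after OHT, and the remaining 749 near -0.04.

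The runs hold genes named elsewhere in this comparison. Ash2l, a subunit of H3K4 methyltransferases, had 365, 374 and 355 CPM in HDAC1-E63R and 119, 107 and 99.8 CPM in HDAC1-Y48E (-1.75 ± 0.1, adjusted p = 2.76e-11), and -1.58 before OHT. Fgfr1 lies in the first run and Vegfc, a lymphatic growth factor (-3.36), in the second. Msmo1, a sterol oxidase of cholesterol synthesis, in the third, had 111, 126 and 122 against 26.9, 28.8 and 28.1 CPM (-2.1, adjusted p = 1.58e-10), against -1.05 before OHT, and its interaction was -1.04 (adjusted p = 7.77e-04). Outside the runs 337 lower DEGs remain, among them Klf2, which lies on chromosome 8 beyond the fourth run.

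Lists of other lineages had from 1 to 4 DEGs each, where 4.49% of all tested genes were DEGs. Of 24 trophoblast genes 4 were higher and 0 lower (16.7%), with a median of 0.19 that was 0.2 before OHT. By the adjusted p alone 5 were higher and 2 lower, and the list's summed level was 1509 to 1571 CPM in HDAC1-E63R and 2134 to 2167 CPM in HDAC1-Y48E. Most of that difference was Peg10, an imprinted gene needed in placenta, at 1011, 926 and 954 against 1487, 1507 and 1434 CPM (0.61, adjusted p = 0.00902, under 2-fold). The DEGs were Gata2 (18, 16.4 and 21.6 against 53.9, 48.4 and 61.9 CPM, 1.55), Esx1 (24.3, 27.2 and 23.2 against 63, 73.2 and 75.9 CPM, 1.51), Rhox6 (1.2) and Rhox9 (1.17). The last 3 are X-linked, and Rhox9 lost its call without HDAC1-Y48E replicate 2 or HDAC1-E63R replicate 1 (adjusted p up to 0.0132). Among the early trophoblast factors, Cdx2 had -2.29 (adjusted p = 0.205), Eomes 0.27 (0.413), Gata3 0.54 (0.366) and Tfap2c -0.92 (6.49e-05), and Tpbpa, Prl2c2 and Synb were at 0 in all 6 libraries. Of 17 primitive endoderm genes only Dab2, an endocytic adaptor, was called (8.44, 8.48 and 10.7 against 32.9, 31.8 and 26.3 CPM, 1.72, adjusted p = 7.81e-05). Of 23 neural genes 1 was called (4.35%), Pax6 at -2.04 (edgeR adjusted p = 0.00899), a call lost in each of the 6 omissions. The shares called in the primitive endoderm (5.88%) and neural lists were near that of all tested genes. Of 17 formative and primed genes 3 were called (17.6%), with Sox11 higher (1.5) and Tcf15 (-1.39) and Etv4 lower.

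Genes of the 2-cell-like state had 8 higher DEGs and 1 lower of 29 (31%), with a median of 0.95, but 9 higher and a median of 0.99 before OHT. The higher ones were mainly Usp17l deubiquitinase genes, near-identical copies, such as Usp17la at 11.3, 13.2 and 12.9 CPM in HDAC1-E63R against 42.8, 39.7 and 40.2 CPM in HDAC1-Y48E (1.71, adjusted p = 3.63e-05). The Zscan4 cluster of chromosome 7 had 9 genes with a median of 0.57 after OHT, 1.24 before and 0 DEGs after OHT. Tmem92, a marker of this state, was lower (-1.52, adjusted p = 1.1e-04).

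Among the largest decreases were transcripts without a known protein. 4930405N21Rik had 2 counts in the 3 HDAC1-Y48E libraries and 94 in the HDAC1-E63R libraries, a ratio of 46 (95% counting interval 12.4 to 385), and Mir124a-1hg, a host transcript of miR-124, had 2 and 78 counts, a ratio of 38.2 (10.2 to 321). Both were well detected before OHT in HDAC1-Y48E, with means of 4.2 and 4.56 CPM. Gm11543, a pseudogene, was 5.71, 5.43 and 5.97 CPM in HDAC1-E63R against 0.602, 0.363 and 0 CPM in HDAC1-Y48E (-4.13, adjusted p = 1.78e-05). Outside the X chromosome, Cox7b2, a testis cytochrome oxidase subunit, rose from 0.497, 0.381 and 0.685 CPM to 9.54, 10.2 and 10.3 CPM (4.24 ± 0.65, adjusted p = 6.72e-05), with an interaction of 6.23.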

How the data were processed

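Total RNA of the 18 samples was sequenced from NEB Next Ultra libraries. The deposited values are raw read counts per gene, 1 file per library, which the authors made with HISAT2 2.1.0, SAMtools 1.9 and HTSeq on mm10 per the submitters' processing notes. The annotation and the strand setting of the counting are not given in the sources used here. Entries that name no gene (59.4 to 61.2% of each file, 42.9 to 45.9% outside any feature) were left out. Whether strand was used in counting in a way that does not match the kit was not tested. Reads of overlapping antisense genes could then be counted for either gene, and depth per gene would be lower.

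All 18 libraries were fitted together with 1 coefficient per group in edgeR 4.0.16 (R 4.3.3, filterByExpr, TMM, glmQLFit, glmQLFTest), which left 18791 genes. HDAC1-Y48E was compared with HDAC1-E63R after OHT, untreated, and by the difference of their OHT responses. p-values were two-sided and Benjamini-Hochberg adjusted over all tested genes, and a DEG needed an adjusted p under 0.01 and over 2-fold. Fold changes carry edgeR's default prior count of 0.125, so those of genes near 0 counts depend on it. No source says that replicates were separate cultures, so p-values cover the spread between these samples, which may be technical. Counting intervals are exact at 95% and cover counting error only, as does the floor of 3 counts.

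The alternatives were DESeq2's size factors in edgeR, DESeq2 1.42.0 itself, no filter on low counts, a replicate block, only the libraries compared, edgeR's test against the 2-fold limit, an adjusted p of 0.05, counts thinned to equal depth, and each library left out. The lists and the comparison were chosen with earlier results of these data known. Named were Hdac1, Hdac2 and their partners, genes the study names, the 12 largest DEGs each way with non-overlapping groups and at least 1 CPM, the 6 largest each way of the interaction and of the untreated comparison, up to 6 DEGs of each list, and the 6 smallest adjusted p each way. A further 16 genes, such as Tdgf1, Gdf3, Sycp2 and Taf7l, other list members given by value, and the X-linked families were named after their values were seen. Positions come from GENCODE M21 (GRCm38), where 18528 of 18791 symbols matched (98.6%), and promoters from RefSeq (GRCm38.p6). Copies are other annotated genes at 95% identity or more over 300 bases or more.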

Additional observations from a re-analysis of the deposited data

Results flagged for a closer look

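The results in this section were marked because the response to OHT differed between the lines by the interaction test of edgeR (adjusted p under 0.01 and over 2-fold). The test called 60 genes with a more positive and 186 with a more negative response in HDAC1-Y48E, out of 18791, and these became 183 and 282 without untreated HDAC1-E63R replicate 3, the library that stood apart. Values are log2 differences of the responses, HDAC1-Y48E minus HDAC1-E63R.

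Among pluripotency genes the differences were -1.07 for Nanog, -1.24 for Esrrb, -2.39 for Prdm14, -1.86 for Tcl1, -1.84 for Nr0b1, -1.36 for Klf2, -1.49 for Nr5a2, -1.65 for Gdf3, -1.46 for Tfcp2l1 and 2.28 for Dppa3. Signalling genes gave -1.81 for Fgf4, -1.96 for Fgf17, -1.87 for Fgf15, -1.18 for Etv5, -2.67 for Inhbb, -2.35 for Notch4 and -1.30 for Vegfa. Metabolic and cell-cycle genes gave -1.65 for Ldhb, -1.27 for Aldoc, -1.14 for Hk2, -2.20 for Tdh, -1.21 for Cbs, -1.49 for Cth, -1.04 for Msmo1 and -1.0 for Cdc6. Chromatin and other regulators gave -1.64 for Tet1, -1.61 for Wdr76 and -1.14 for Bhlhe40.

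Of the lists, 3 of 8 simple-epithelial keratins, 2 of 23 BMP and Id genes and 3 of 34 germline genes had a more positive response in HDAC1-Y48E, with 1 germline gene more negative and 0 of 24 epidermal genes called. The values were 2.01 for Krt8, 2.27 for Krt18, 1.41 for Krt19, 1.93 for Id3, 1.78 for Dazl, 1.0 for Stra8 and 1.27 for Rec8. Genes outside these lists gave 1.81 for Scml2, 1.33 for Esx1, 1.49 for Sox11 and 1.68 for Herc3. The most positive values were 6.23 for Cox7b2, 5.76 for Bfsp2, 4.73 for Usp9y, 3.58 for 1700019A02Rik, 3.42 for Ankrd1 and 3.36 for Platr15. The most negative were -5.05 for Gm11543, -4.60 for Gm42738, -4.41 for Gm16136, -4.36 for Mir124a-1hg, -4.30 for 4930405N21Rik and -3.80 for Gm19605. Several of these rest on few counts, and fitted values at such depth depend on the prior count. Tmem92 gave -2.05. Cdkn1c gave 1.55, from an untreated difference of -2.06 that was -0.52 after OHT.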

How the results depend on the processing

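The treated counts of 445 higher and 399 lower became 472 and 371 with DESeq2's scaling, which moved the median of all genes from 0.01 to 0.04, 635 and 440 with DESeq2, and 458 and 400 after thinning. A fit of the 6 libraries alone gave 1012 and 474. In untreated cells such a fit gave 17 and 30. Requiring the change itself to exceed 2-fold gave 73 and 71 after OHT, 19 and 19 untreated and 4 and 15 for the interaction. An adjusted p of 0.05 gave 719 higher after OHT, 138 and 156 untreated and 192 and 299 for the interaction. The higher interaction count was 145 without the filter and 184 with DESeq2. Leaving out 1 library gave 274 to 653 higher and 325 to 474 lower after OHT, 63 to 121 and 85 to 131 untreated, and 41 to 183 and 143 to 282 for the interaction, the top of the treated and interaction ranges being without untreated HDAC1-E63R replicate 3, an omission chosen for the treated comparison after seeing the data. Replicate numbers did not pair the samples (correlations of -0.04 to 0.04), and a replicate block gave 408 and 373, 70 and 101, and 57 and 183. No called direction reversed, though Mta1 and Trerf1, not called, changed sign in some omissions (to 0.02 and 0.09). Of 2148 values for named genes 1860 kept their side of the threshold, 284 no longer passed and 4 newly passed, among them Igf2 in the 6-library fit (adjusted p = 0.0118 as reported). Of list counts 73 of 528 moved by over 1.5 times, and of list medians 105 of 264 moved. All 20 chromosome medians moved under DESeq2's scaling, X from 0.21 to 0.24, while the median of all genes went from 0.01 to 0.04. A median counts as moved when it shifts by more than its spread between replicates. The cause of the shifts in the lists was not tested. Depth limits genes near the floor of 3 counts, about 0.248 to 0.3 CPM in the treated libraries.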

Other observations

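Other gene lists showed little. Of 37 tested Wnt genes 1 was higher, Wnt11 (1.32), and 1 lower, Fzd7 (-1.01), of 33 collagen, laminin and integrin genes 1 was higher, Col5a2 (3.03), and of 21 endothelial and VEGF genes 3 were lower, Vegfa, Vegfc and Robo4. Of 28 cell-cycle inhibitor and p53 genes 2 were higher, Cdkn2a with 19.3, 14.8 and 19.2 CPM in HDAC1-E63R against 41.5, 36.9 and 35.6 CPM in HDAC1-Y48E (1.1, edgeR adjusted p = 3.19e-04) and Cdkn2b (1.25). Wnt11, Fzd7, Col5a2, Robo4, Cdkn2a and Cdkn2b each lost the call without at least 1 of the 6 libraries. Usp9y, a Y-linked deubiquitinase gene, had 1.82, 2.29 and 3.33 against 17.3, 11.5 and 13.1 CPM (2.49, adjusted p = 0.00121), with calls lost without HDAC1-Y48E replicate 1 or HDAC1-E63R replicates 1 or 2 (adjusted p up to 0.0151).

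HDAC1-WT cells give a reference level for the genes of this comparison, as values with no test. After OHT the mean for Prdm14 was 60.5 CPM in HDAC1-WT, above both mutant lines, and for Pou5f1 1207 CPM. For Krt8, Id3 and Akr1cl the HDAC1-WT means after OHT were 61.6, 7.26 and 0.128 CPM, under both mutant lines. In other genes HDAC1-WT lay nearer to HDAC1-Y48E. OHT means in HDAC1-WT, HDAC1-Y48E and HDAC1-E63R were 321, 285 and 617 CPM for Hk2 and 23.5, 28.2 and 86 CPM for Etv4. They were 20.6, 15.7 and 44 CPM for Socs2 and 32.7, 38 and 17.7 CPM for Cdkn2a. These genes were picked by their values, and how many lie either way was not counted.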
